A study of Mus musculus with 3 samples.

Results

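Baseline gene expression was described in untreated primary cultures of PyMT mammary tumors, taken as the control channel of 3 two-color Agilent mouse arrays. The members were the probes that the scanner software called well above background in the control channel of all 3 arrays, which was the case for 28832 of the 55681 probes. Of these, 18363 could be named, and they stood for 13903 of the 21154 named genes, or 65.7%. Another 653 named genes were well above background in 2 of the 3 untreated channels, 770 in 1 and 5828 in none.

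The study asked how RANK signaling in tumor cells shapes immunity against breast cancer, and these arrays served to find genes that answer to RANK ligand (RL). By the labels, tumor cells came from 3 MMTV-PyMT mice, in which the MMTV promoter drives the polyoma middle T oncogene in mammary epithelium, and the tumors are called 1, 2 and 3 here. From each tumor, a control culture with no RL and a culture with RL for 24 h were put on the same array in different dyes. All cultures grew in DMEM F12 with 5% FBS, penicillin and streptomycin, cholera toxin, insulin and EGF, and per the methods on matrigel, with RL added a day after plating. The methods describe cultures from transplants of tumors with and without RANK, while the labels give neither a transplant nor the strain, age or RANK genotype, so which of these the 3 tumors stand for is not known here. Labels and methods also differ on the dose of RL, which touches only the RL channel. The control RNA was labeled with Cy5 in tumors 1 and 3 and with Cy3 in tumor 2. There was 1 untreated culture per tumor, so the spread over 3 tumors is the spread of the group, culture and tumor cannot be told apart, and no difference between tumors was tested.

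In the mammary gland, milk is made by luminal alveolar cells under prolactin, Stat5a and Elf5, while a separate luminal population carries the estrogen and progesterone receptors and senses hormones, and basal myoepithelial cells contract around both. Hormone-sensing cells release RL in response to progesterone, and RL acts on neighboring cells that carry its receptor RANK, encoded by Tnfrsf11a, through TRAF adaptors and NF-kB. Tumors driven by polyoma middle T arise from luminal cells and are known to lose estrogen receptor as they progress.

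Each level below is the median intensity of a spot less the median of its local background, divided by the median of this net signal over the 28832 member probes of the same channel, which was 485, 256 and 516 in tumors 1, 2 and 3. Runs of levels in a sentence belong to tumors 1, 2 and 3 in that order. A gene was represented by the probe well above background in all 3 channels with the highest mean log2 level over the tumors where its net signal was positive, and the brightest gene of a list is meant in the same way. Because brightness depends on the probe as well as on the transcript, a level is read between tumors or against its channel, and the levels of different genes are not set against each other as amounts of RNA. The median mean level of the 13903 detected genes was 2.60, and 80% of member probes lay between 0.0660 and 26.2 in tumor 1, 0.0430 and 25.8 in tumor 2, and 0.0620 and 25.8 in tumor 3. Probes just outside the rule, well above background on 2 arrays, had a median net intensity of 15, 2 and 16, against 485, 256 and 516 for the members. The arrays shared a slide and a scan, and no member spot was saturated. Probes printed at least 5 times on an array varied by a median SD of 0.17, 0.16 and 0.16 on the log2 scale. Over the tumors, the median SD of a gene was 0.25 log2 units across 13832 genes with a positive level in each, and it was above 1 for 1019 genes.

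Differences between tumors were counted where they reached 1 log2 unit in the untreated channel and again, in the same direction, in the RL channel of the same arrays. Tumors 1 and 3 carry the same dye within each channel, and of 13795 genes 492 (3.57%) were higher in tumor 1 and 579 (4.20%) higher in tumor 3. Tumor 2 carries the other dye, which the RL channel exchanges. Of 13738 genes, 146 (1.06%) lay above both other tumors and 280 (2.04%) below both by this rule. The counts of a list are read beside these shares. With the normexp background correction the counts were 268 and 340 for tumors 1 and 3 and 84 and 124 for tumor 2, so they hold for the background taken off here. The untreated channel alone would have put 723 genes below in tumor 2, so levels of tumor 2 are read with the RL channel beside them where they stand apart. The channels of a tumor share an array and a slide position, so a defect of the array would appear in both.

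The 6 genes that mark these cultures were all well above background in the 3 untreated channels. Krt8, a keratin of simple and luminal epithelium, had levels of 91.7, 85.7 and 149.7 in tumors 1, 2 and 3. Its partner Krt18 had levels of 638, 289 and 697, lowest in tumor 2, but with the dyes exchanged in the RL channel tumor 2 was the highest of 294, 523 and 348. Tumor 2 carried Cy3 where it was lowest and Cy5 where it was highest. Epcam, an adhesion molecule of epithelial cells, was even across tumors at 35.7, 29.4 and 37.9, with an SD of 0.19 log2 units. Elf5, the transcription factor that sets the alveolar fate, was at 65.6, 33.6 and 30.2 and so highest in tumor 1. The difference between tumors 1 and 3 was 1.12 log2 units in the untreated channel and 0.83 in the RL channel, short of the rule. Tnfrsf11a, the receptor RANK, was at 4.23, 3.65 and 2.55, above the median member probe in each tumor.

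Esr1, the estrogen receptor of hormone-sensing cells, was well above background but under the median of its channel, with levels of 0.127, 0.0734 and 0.137 from the brightest of 3 probes. These lie in the dim range of the arrays, and a level there depends on the background taken off: after subtraction of the mean net signal of the 308 negative controls, an alternative chosen after seeing the data, they were 0.137, 0.107 and 0.148. Another Esr1 probe was well above background at 0.0289, 0.0117 and 0.0349, and the remaining probe on no array. The markers therefore place an epithelial culture with luminal keratins, alveolar Elf5 and RANK on the arrays, and estrogen receptor in the dim range.

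The wider luminal list was well above background for 16 of 16 genes, against 65.7% of all named genes. Its median level was 18.1, and by tumor it was 24.3, 17.1 and 16.3. The median over all detected genes was 2.60, but it comes from different probes, so the gap is not read as more RNA. The tight junction claudins Cldn3 and Cldn7 had levels of 86.9, 62.4 and 95.4 and of 88.1, 59.9 and 89.6, and both varied little between tumors 1 and 3. Cldn4, a claudin of the same family, was at 4.16, 2.59 and 13.2 and was higher in tumor 3, with tumor 1 minus tumor 3 at −1.67 log2 units in the untreated and −1.43 in the RL channel. Its other probe gave 3.37, 2.45 and 13.2, the same order of tumors. Cdh1, the E-cadherin that holds epithelial cells together, was at 12.5, 12.3 and 7.35, and the epithelial splicing regulator Esrp1 and the transcription factor Grhl2 were even, at 13.6, 14.7 and 15.3 and 15.9, 18.5 and 17.2. Krt19 was at 85.5, 38.3 and 95.2 and was the 1 gene of the list below both other tumors in tumor 2 in both channels. Ehf, an epithelial ETS factor, was at 32.6, 15.8 and 13.5 and was the 1 gene of the list higher in tumor 1 by the rule. Muc1, a mucin of the apical surface, was at 2.68, 2.48 and 2.36, close to the median over all detected genes, and the ETS factor Elf3 at 1.19, 1.04 and 0.946.

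**Figure D1:**
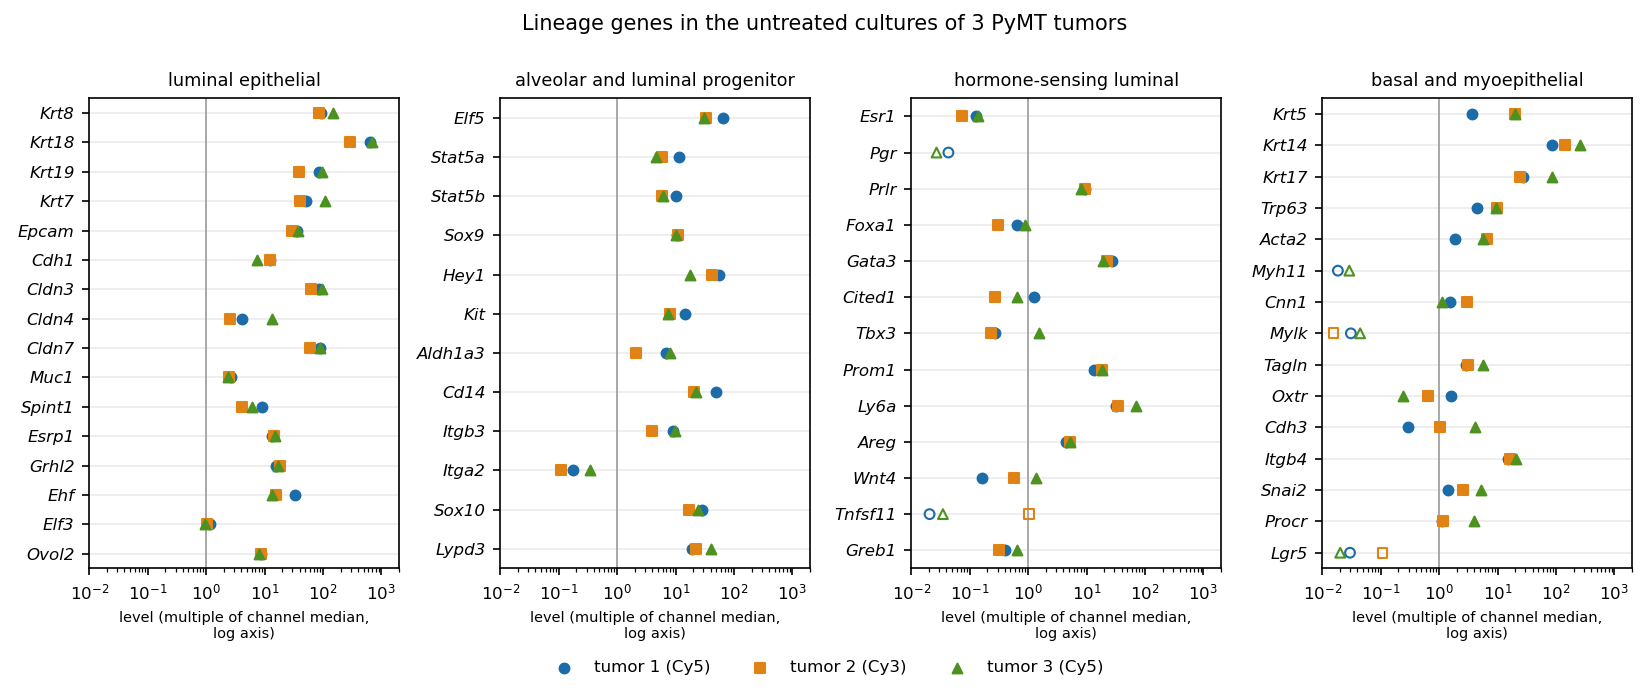
Levels of lineage genes in the untreated cultures of tumors 1, 2 and 3, as multiples of the channel's median on a log axis, by list. Filled symbols are genes well above background in all 3 channels, open symbols genes that were not, and levels under 0.01 are not drawn. Elf5 sits at 65.6, 33.6 and 30.2 and Esr1 at 0.127, 0.0734 and 0.137, and Krt5 is lowest in tumor 1 at 3.69.

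Genes of alveolar and luminal progenitor cells were detected in 12 of 12 cases, with a median level of 10.1. Stat5a, which carries the prolactin signal to milk genes, was at 11.3, 5.87 and 4.71, and Hey1, a target of Notch, at 55.5, 42.5 and 17.4. Cd14, a co-receptor for bacterial lipopolysaccharide that luminal progenitors carry, was at 49.5, 20.8 and 22.1. These 3 genes were the ones of the list higher in tumor 1, with tumor 1 minus tumor 3 at 1.27 and 1.10 log2 units in the untreated and RL channels for Stat5a, 1.67 and 1.20 for Hey1 and 1.17 and 1.54 for Cd14. Lypd3, a surface protein of keratinocytes, was at 19.1, 22.002 and 39.9 and was the 1 gene higher in tumor 3. The receptor Kit, at 14.3, 8.08 and 7.47, leaned the way of Elf5 with 0.93 and 1.01 and fell short of 1 in the untreated channel. Sox9 and Sox10, transcription factors of mammary progenitors, showed no such split, with levels of 10.72, 11.1 and 10.2 and 28.1, 17.1 and 24.7. Aldh1a3, an enzyme of retinoic acid synthesis, and the integrin Itgb3 were lowest in tumor 2, at 6.95, 2.10 and 8.01 and 8.94, 4.01 and 9.91, in both channels. A difference in such a list can come with fewer cells of a type or with less RNA per cell, and these cannot be told apart in RNA from a whole culture.

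Hormone-sensing genes were detected for 12 of 14, with a median level of 0.584. The progesterone receptor Pgr passed on 2 arrays with its brighter probe and on 1 with the other, so it is not counted as detected. Tnfsf11, the gene of RL itself, passed on 2 arrays, and its level was 1.05 in tumor 2 and near background, at 0.0206 and 0.0349, in tumors 1 and 3. Foxa1, which opens chromatin for the estrogen receptor, was at 0.654, 0.309 and 0.874. Foxa1 and Cited1, a co-activator of estrogen receptor at 1.25, 0.275 and 0.651, lay below both other tumors in tumor 2 in both channels. Genes of the list that other luminal cells share lay above the median of their channel. Gata3, the luminal master regulator, was at 27.8, 22.1 and 19.5, the prolactin receptor Prlr at 9.59, 9.48 and 8.04, the surface antigens Prom1 and Ly6a at 13.5, 18.0 and 18.2 and 32.4, 34.6 and 69.9, and the EGF receptor ligand Areg at 4.45, 5.14 and 5.13. Wnt4, the Wnt ligand induced by progesterone, was at 0.165, 0.574 and 1.38 and the T-box factor Tbx3 at 0.272, 0.230 and 1.56. Both were highest in tumor 3, with tumor 1 minus tumor 3 at −3.07 and −2.84 log2 units for Wnt4 and −2.52 and −2.67 for Tbx3 in the untreated and RL channels.

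Basal and myoepithelial genes were detected for 12 of 15, with a median level of 3.89 and a median SD over tumors of 0.97 log2 units, against 0.25 over all detected genes. The basal keratins Krt5 and Krt14 were at 3.69, 20.1 and 19.5 and 84.1, 145 and 254, both lowest in tumor 1. The other Krt5 probe was dim at 0.0577, 0.410 and 0.535, again lowest in tumor 1. Krt17 was at 27.7, 24.0 and 85.7, and Trp63, the p63 factor that maintains basal cells, at 4.43, 9.73 and 9.55. The probes of Trp63 disagree, since another that was well above background gave 6.65, 6.38 and 6.72 and so no difference between tumors. Among contractile genes, Acta2, smooth muscle actin, was at 1.85, 6.53 and 5.60, and Cnn1 and Tagln at 1.55, 3.04 and 1.11 and 2.88, 3.12 and 5.66, whereas Myh11 was well above background on 1 array and Mylk on 2. By the rule, 8 of the 12 detected genes were higher in tumor 3 and 1 in tumor 1, where 4.20% and 3.57% of all genes were. The 8 were Krt5, Krt14, Krt17, Trp63, Acta2, Cdh3, Snai2 and Procr, and the largest difference among them was that of the P-cadherin Cdh3 at 0.297, 1.04 and 4.13, −3.80 and −3.81 log2 units as tumor 1 minus tumor 3. The exception was Oxtr, the oxytocin receptor of contracting myoepithelium, which was highest in tumor 1 at 1.61, 0.637 and 0.244. Lgr5, a stem cell receptor, was well above background on 1 array.

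Genes of the mesenchymal transition were well above background for 9 of 9, against 65.7% of all named genes, and 4 of them were higher in tumor 3 than in tumor 1, where 4.20% of all genes were. Fn1, which encodes fibronectin, was at 51.7, 168 and 168 and Vim, the filament vimentin, at 19.1, 39.5 and 21.6. Tumor 1 was the low tumor for Fn1 in both channels, while Vim was highest in tumor 2. The repressors of E-cadherin were mostly dim. Snai1 was at 2.31, 4.18 and 2.14, Snai2 at 1.40, 2.57 and 5.17, Twist1 at 0.0763, 0.0586 and 0.103, Zeb1 at 0.0515, 0.422 and 0.203 and Zeb2 at 0.0814, 0.209 and 0.175. Zeb1 was the 1 gene of the list above both other tumors in tumor 2.

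Markers of other cell types were examined because a primary tumor culture can hold them. All 12 of 12 fibroblast genes were well above background, with a median level of 1.70. The collagens Col1a1, Col1a2 and Col3a1 were at 8.89, 3.22 and 18.3, 9.01, 2.63 and 18.1 and 2.43, 0.9004 and 5.31, each lowest in tumor 2 and highest in tumor 3. Pdgfra and Pdgfrb, receptors of fibroblasts and pericytes, were at 0.540, 1.12 and 0.604 and 0.631, 0.566 and 2.01. The levels of the list summed to 29.3, 18.9 and 59.5, with Col1a1 as its brightest gene. By the rule 7 of the 12 were higher in tumor 3 and none higher in tumor 1, where 4.20% and 3.57% of all genes were. The basal, mesenchymal, chemokine and interferon lists, described in their places, were also higher in tumor 3 for several genes, and the part of fibroblasts in those differences was not tested.

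Leukocyte genes were read next. Of the genes that leukocytes of many kinds share, 6 of 8 were well above background on all arrays, close to the 65.7% of all named genes, with levels that summed to 2.15, 1.04 and 2.16 and Vav1 as the brightest gene. Ptprc, the gene of CD45 and the defining marker of leukocytes, was well above background on 2 arrays and not in all 3, and so was Cd53. Coro1a and Itgb2 were at 0.303, 0.207 and 0.407 and 0.263, 0.148 and 0.216. Macrophage genes were detected for 12 of 13, summing to 22.4, 19.6 and 24.5, and the part of macrophages in any difference between tumors was not tested. Itgam was the brightest gene of the list at 12.7, 14.5 and 15.2, but its other probes, also well above background, were at 0.109, 0.0312 and 0.104 and 0.0577, 0.0156 and 0.0271, so the sum rests on 1 probe of Itgam. The phagocyte genes Tyrobp and Cd68 were at 1.15, 0.459 and 1.28 and 2.51, 1.21 and 2.04, the complement gene C1qa at 0.430, 0.199 and 0.335, and Adgre1, the F4/80 antigen, at 0.0526, −0.00195 and 0.0543. The other Adgre1 probe gave 0.0536, 0.00391 and 0.0640, so tumor 2 was near its local background with both. Cx3cr1 was on no array well above background. By the rule no macrophage gene and no pan-leukocyte gene differed between tumors 1 and 3.

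Lymphocyte genes were mostly at background. Of the T and NK cell genes, 6 of 15 were well above background, and Cd3d, Cd3g, Cd8a, Cd8b1, Cd2, Ncr1 and Klrb1c were so on no array. Those detected summed to 6.64, 6.12 and 6.65 and included Cd4 at 2.70, 2.08 and 2.22, of which another probe was on no array above background, Cd3e at 1.28, 1.39 and 1.23 and the kinase Lck at 1.27, 1.29 and 1.88. Of the B cell genes 1 of 7 was detected, Cd22 at 0.954, 0.684 and 0.638, while Ms4a1, Cd79a, Cd79b, Pax5 and Blk were on no array above background. Dendritic cell genes were detected for 2 of 6, summing to 184, 149 and 171, nearly all of it from a Siglech probe at 183, 149 and 171. The other Siglech probe was on no array above background, as were Flt3, Xcr1 and Clec9a, so this bright probe is not read as the gene.

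For neutrophils 5 of 9 genes were detected, or 55.6%, against 65.7% of all named genes, and their levels summed to 141, 145 and 130.0. The brightest was Csf3r, the receptor of a granulocyte growth factor, at 111, 109 and 115. Most of each sum thus rests on the 1 probe of Csf3r, which no other probe checks. The granule and receptor genes Cxcr2, Ngp and Retnlg were on no array above background, and Mpo on 1. S100a8 and S100a9, calcium-binding alarmins that epithelium also makes, were at 27.5, 28.9 and 11.5 and 0.406, 3.41 and 2.20, and their tumor order differed. S100a9 was higher in tumor 3 than in tumor 1 by the rule, with −2.44 and −2.70 log2 units as tumor 1 minus tumor 3. Camp, also of the neutrophil list, was at 0.158, 2.50 and 0.184 and lay above both other tumors in tumor 2 by the rule. Endothelial genes were detected for 4 of 10, summing to 5.77, 5.67 and 5.63, and the defining Cdh5, Tie1 and Emcn passed on 1 array, Cldn5 and Vwf on 2 and Tek on none. Kdr was the brightest of the list at 5.07, 5.18 and 4.46, with its other probe at 0.0892, 0.0150 and 0.221, and Eng was the 1 gene of the list higher in tumor 3, at 0.121, 0.141 and 0.334. Adipocyte genes were detected for 3 of 8, summing to 1.62, 3.06 and 1.91 with Lpl the brightest by mean log2 level and Fabp4 above it in tumor 2, and Adipoq, Lep, Plin1 and Cidec were on no array above background. Erythroid genes were detected for 2 of 6, summing to 116, 59.9 and 109, nearly all from 1 probe of Hemgn at 116, 59.8 and 109, while Alas2 and Epb42 were on no array above background.

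As a measure of what the call lets through, 20 genes of liver, brain, muscle, pancreas, retina and testis were read the same way. Of these, 8 of 20 were well above background on all arrays, with a median level of 0.138. Snap25, a synaptic vesicle fusion protein, was the brightest at 6.92, 8.55 and 8.46, and Apoa2, an apolipoprotein of liver, was at 2.54, 2.37 and 2.26 with its other probe on no array above background. Alb, Ckm, Nefl, Neurod1, Actn3 and Tnp2 were among the 9 genes above background on no array. A share of 8 of 20 is the yardstick for the endothelial, adipocyte, lymphocyte, dendritic and erythroid lists, whose shares lay at or under it. The fibroblast, macrophage, pan-leukocyte and neutrophil lists lay above it. Of these, the neutrophil list stayed under the 65.7% of all named genes. The pan-leukocyte list was close to that share and had a median level of 0.204. Being well above background at a level near 0.138 does not make a gene a marker of a cell type in the culture.

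**Figure D2:**
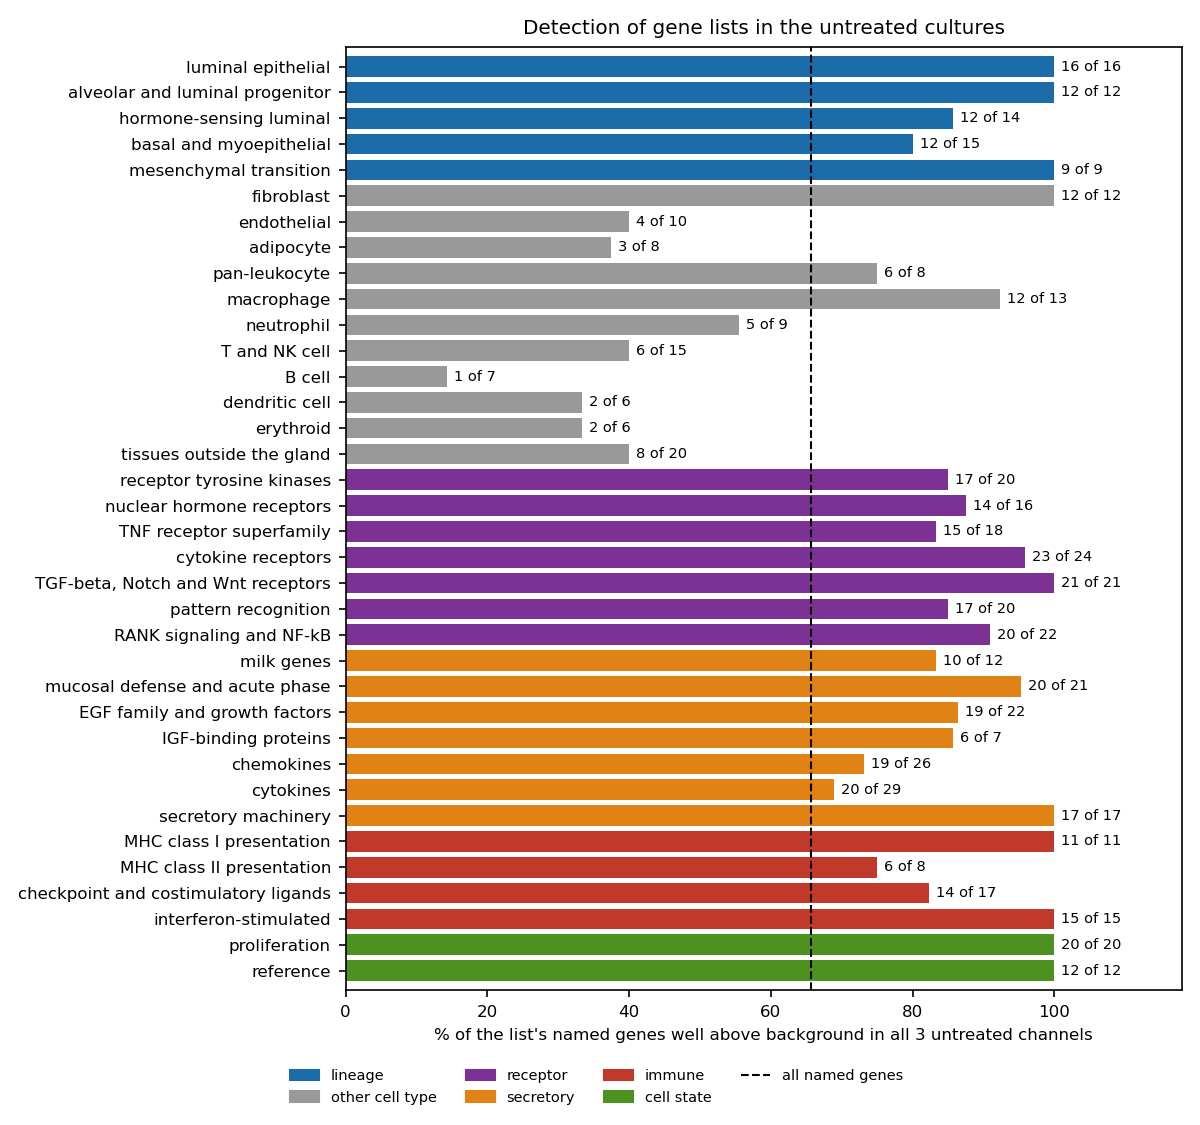
Share of each gene list that was well above background in all 3 untreated channels, in percent of the list's named genes, with counts at the bar ends and bars colored by class. The dashed line is the share over all named genes, 65.7%; luminal epithelial genes reach 16 of 16 and B cell genes 1 of 7.

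Among receptors, 17 of 20 receptor tyrosine kinases were well above background, with a median level of 1.09. Egfr, the receptor of EGF and Areg, was at 14.9, 12.0 and 16.52 from its brightest probe, and its other probes were at 1.20, 1.17 and 1.52 and 1.01, 0.812 and 1.10. Erbb2 was at 4.20, 5.02 and 4.14 and Erbb3 at 0.175, 0.223 and 0.207, and Erbb4 was on no array above background. So 3 of the 4 receptors of the EGF family were detected, with levels that stayed close between tumors. Fgfr1, a fibroblast growth factor receptor, was at 49.3, 41.8 and 26.7, and its other probes, at 4.93, 4.49 and 2.85 and 1.19, 1.06 and 1.01, were also lowest in tumor 3. The ephrin receptors Epha2 and Ephb4 were at 20.7, 14.03 and 16.9 and 16.8, 22.2 and 18.1, and the insulin-like growth factor receptor Igf1r at 2.32, 8.19 and 3.65, highest in tumor 2. Axl, a receptor of Gas6, was at 1.82, 6.34 and 8.85 and was the 1 gene of the list higher in tumor 3, with tumor 1 minus tumor 3 at −2.28 and −1.95 log2 units. Ret was on no array above background.

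Nuclear hormone receptors were detected for 14 of 16, with a median level of 4.19, and none differed between tumors 1 and 3 by the rule. The vitamin D receptor Vdr was at 25.3, 30.1 and 14.5, the retinoic acid receptors Rara and Rarg at 18.3, 18.7 and 13.03 and 11.6, 15.7 and 15.7, and the oxysterol receptor Nr1h2 at 27.0, 22.1 and 21.9. Nr3c1, the glucocorticoid receptor, was at 8.43, 9.43 and 6.05, and the mineralocorticoid receptor Nr3c2 was above background on 1 array. Esr2, the other estrogen receptor, gave 5.88, 6.42 and 5.97 from its 1 probe, a value that no other probe checks.

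Of the TNF receptor superfamily 15 of 18 genes were detected, with a median level of 1.75. Beside Tnfrsf11a, the TNF receptor Tnfrsf1a was at 21.3, 19.6 and 17.03, the lymphotoxin receptor Ltbr at 15.9, 18.3 and 17.04, and Tnfrsf12a, the receptor of TWEAK, at 52.0, 61.9 and 82.9. These 3 lay far above the median of their channel in each tumor. Tnfrsf11b, the decoy receptor osteoprotegerin that binds RL, was dim in tumor 1 and higher in tumor 3, at 0.228, 0.504 and 1.66, with tumor 1 minus tumor 3 at −2.86 and −3.05 log2 units. Fas, a death receptor, was at 0.957, 3.66 and 0.946 and lay above both other tumors in tumor 2, by 1.93 log2 units in the untreated and 1.35 in the RL channel. Tnfrsf19, a receptor without a settled ligand, was the 1 gene of the list higher in tumor 1, at 0.837, 0.162 and 0.250. Cd40 and Ngfr passed on 2 arrays and Cd27 on none.

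The chain from RANK to NF-kB was detected for 20 of 22 genes, with a median level of 2.86. The adaptors Traf2, Traf3 and Traf6 were at 15.6, 24.4 and 18.3, 8.48, 11.8 and 13.2 and 1.31, 1.03 and 1.56, and the IkB kinase subunits Chuk and Ikbkb at 7.65, 9.51 and 8.39 and 4.26, 3.55 and 4.76. Rela, the main activating subunit of NF-kB, was at 31.7, 35.5 and 35.5, and Relb and Nfkb2, the subunits of the alternative pathway, were at 4.90, 8.45 and 9.27 and 4.26, 6.07 and 5.96. Rel, the subunit prominent in lymphoid cells, was on no array above background. The inhibitor Nfkbia was at 28.0, 32.4 and 43.6 and Tnfaip3, the A20 enzyme that shuts the pathway off, at 3.18, 7.01 and 15.6. Tnfaip3 and Tnfrsf11b were the genes of the list higher in tumor 3, with −2.29 and −1.89 log2 units for Tnfaip3. The untreated cultures thus carried the receptor and its signaling chain, while the ligand Tnfsf11 was near background in tumors 1 and 3 and at 1.05 in tumor 2.

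Cytokine receptors were detected for 23 of 24 genes, with a median level of 2.58, and 4 were higher in tumor 3, where 4.20% of all genes were. The interferon receptor chains stayed within 1 log2 unit over the tumors: Ifnar1 at 8.69, 7.39 and 8.22, Ifnar2 at 7.95, 8.74 and 8.52, Ifngr1 at 7.55, 11.4 and 10.1 and Ifngr2 at 7.19, 8.88 and 11.01. Osmr, the oncostatin M receptor, was at 17.7, 21.3 and 14.4, and Il17rc and Il17re, chains for ligands of the Il17a family, at 13.8, 13.2 and 11.4 and 8.15, 11.5 and 7.87. The 4 genes higher in tumor 3 were Il4ra, Il1r1, Il1rl1 and Il18r1, but the probes of Il4ra disagree, at 0.874, 2.98 and 2.59 and 0.142, 0.125 and 0.163. Il18r1 was at 0.297, 0.318 and 2.05, with −2.79 and −2.37 log2 units as tumor 1 minus tumor 3, and Il1rl1, the receptor of Il33, at 0.518, 0.355 and 2.03. Lifr, the receptor of Lif, and Il1r1 lay above both other tumors in tumor 2, at 0.359, 2.77 and 0.412 and 0.204, 1.52 and 0.711.

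Receptors for TGF-beta, Notch and Wnt ligands were all detected, 21 of 21, with a median level of 4.12. Tgfbr2 was at 20.9, 20.9 and 13.9, Notch3 at 7.49, 7.29 and 6.57, and the Wnt co-receptor Lrp6 at 11.9, 11.7 and 7.81. Notch4 was the 1 gene higher in tumor 3, at 0.402, 0.273 and 1.71, while the others differed by less than the rule between tumors 1 and 3. Lgr4, which also binds RL, was dim at 0.346, 0.643 and 0.424. Pattern recognition genes were detected for 17 of 20, with a median of 1.72, and none differed between tumors 1 and 3 by the rule. The RNA sensors Ddx58 and Ifih1 were at 17.2, 9.20 and 22.8 and 4.90, 2.72 and 7.504, lowest in tumor 2, and the DNA sensor adaptor Sting1 at 18.6, 18.5 and 13.6. Tlr2 and Tlr4, receptors for bacterial products, were at 3.36, 3.27 and 7.43 and 1.58, 0.977 and 0.813, and Tlr8 and Nlrp6 were on no array above background.

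Among the lists described here, those of IGF-binding proteins, milk genes and mucosal defense had the largest median SD over tumors. Milk genes were detected for 10 of 12, with a median level of 10.6 and a median SD over tumors of 1.28 log2 units, against 0.25 over all detected genes. Lalba, alpha-lactalbumin of lactose synthesis, was at 330.1, 17.5 and 2.79, high in tumor 1, intermediate in tumor 2 and low in tumor 3. Csn1s1, the alpha casein, was at 118.4, 22.5 and 5.27 in the same order. The difference of tumor 1 minus tumor 3 was 6.88 log2 units for Lalba in the untreated channel and 6.58 in the RL channel, and 4.49 and 4.22 for Csn1s1. Both have 1 probe on the array. The caseins Csn2 and Csn3 were at 1.55, 0.230 and 0.3004 and 4.35, 0.580 and 0.343, and the whey acidic protein Wap at 3.13, 1.89 and 0.455. The other Wap probe gave 2.47, 1.22 and 0.390, again highest in tumor 1. Of the 10 detected genes 6 were higher in tumor 1 and none higher in tumor 3, where 3.57% and 4.20% of all genes were, and the median difference of the list was 2.27 log2 units, and 2.36 in the RL channel.

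Genes of the milk fat globule did not meet the rule. Mfge8, a globule membrane protein that also clears dying cells, was at 823, 326 and 403, with 1.03 and 0.20 log2 units in the untreated and RL channels. Btn1a1, a butyrophilin of the globule membrane, was at 47.7, 25.2 and 40.6, and Plin2, a coat protein of lipid droplets, at 75.2, 57.9 and 109.6, highest in tumor 3. Xdh, an enzyme that also coats the globule, was at 6.35, 4.87 and 3.34 and leaned toward tumor 1 with 0.93 and 0.99. Csn1s2a was well above background on 2 arrays, and Glycam1 on 1. In the luminal list 1 gene was higher in each of tumors 1 and 3, with a median difference of −0.10 log2 units, and in the alveolar list 3 were higher in tumor 1 and 1 in tumor 3, with a median of 0.47, and 0.41 in the RL channel. Bhlha15, the Mist1 factor of secretory cells, was at 5.21, 2.21 and 0.405 and followed the milk genes with 3.68 and 3.11 log2 units.

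Bhlha15 belongs to the list of the secretory machinery, which was detected for 17 of 17 genes with a median level of 58.2. Hspa5, the main chaperone of the endoplasmic reticulum, was at 200.2, 106 and 145, and Pdia6, an enzyme that forms disulfide bonds, at 175, 112 and 128. Xbp1, the factor that expands this compartment, was at 324, 175 and 132 and Atf4, a factor of the stress response, at 268, 162 and 201. The untreated channel put Xbp1 higher in tumor 1 by 1.29 log2 units and the RL channel by 0.34, so it was not counted. Apart from Bhlha15, no gene of the list differed between tumors 1 and 3 by the rule, and the stress gene Ddit3 was dim at 0.839, 0.441 and 0.519.

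**Figure D3:**
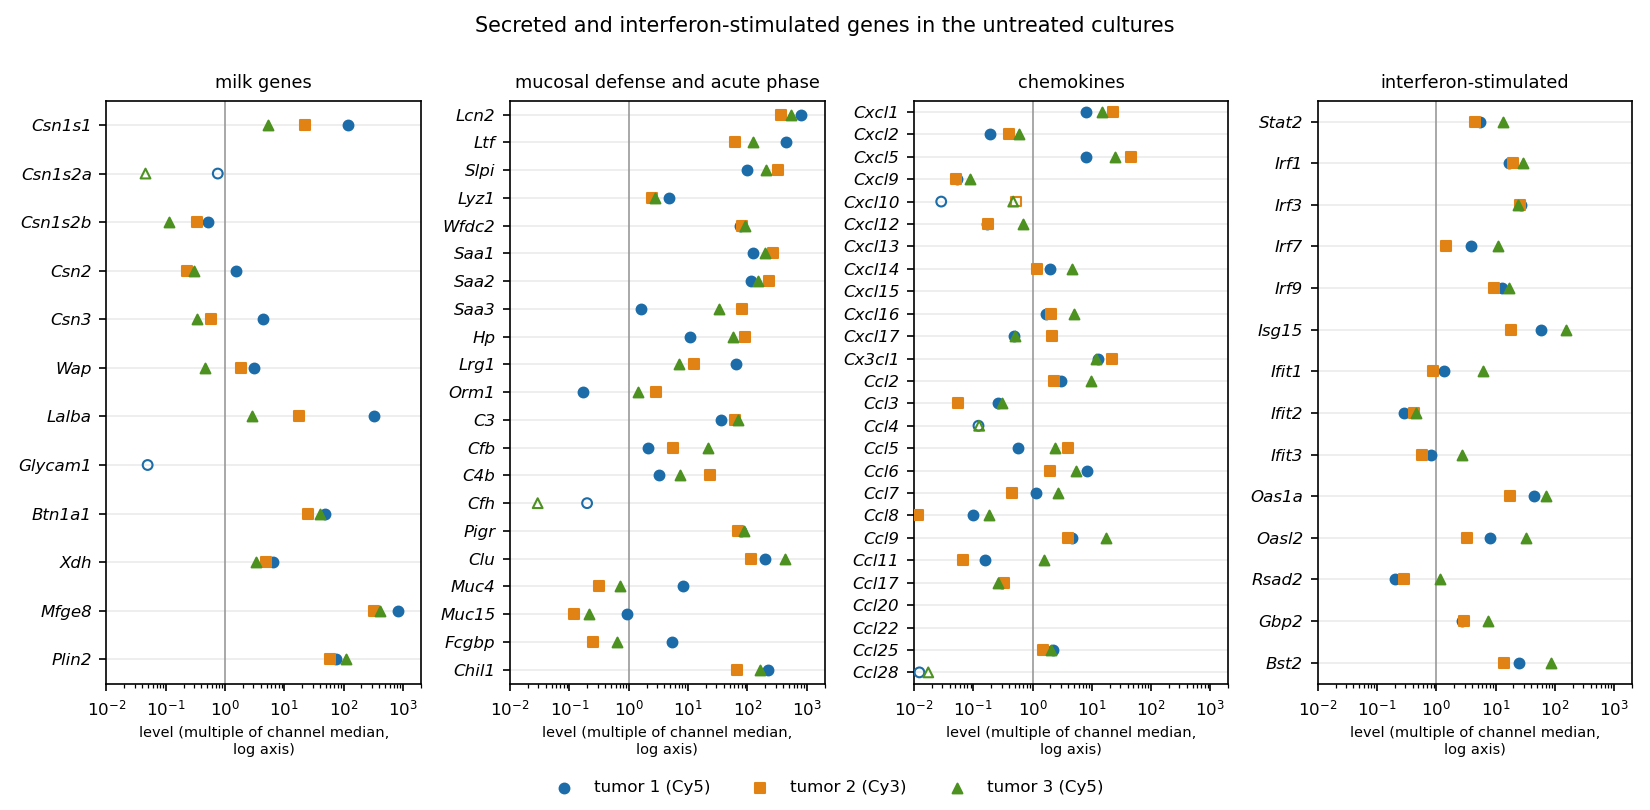
Levels of milk, mucosal defense, chemokine and interferon-stimulated genes in the untreated cultures of tumors 1, 2 and 3, as multiples of the channel's median on a log axis. Filled symbols are genes well above background in all 3 channels, open symbols genes that were not, and levels under 0.01 are not drawn. Lalba spans 330.1, 17.5 and 2.79, and Isg15 is at 57.3, 18.5 and 157.

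Genes of mucosal defense and the acute phase were bright, with 20 of 21 detected and a median level of 44.8. Lcn2, which binds bacterial iron carriers, was at 797, 362 and 553, and Pigr, which carries antibody through epithelium, at 77.4, 69.7 and 88.5 with a dim other probe at 0.381, 0.316 and 0.0833. Wfdc2 and Slpi, small secreted proteins of the whey acidic family, were at 74.9, 80.0 and 92.2 and 97.6, 334 and 207. The complement gene C3 was at 35.4, 60.9 and 69.5, and its other probe at 18.1, 33.3 and 35.4. The list split in both directions, with 5 genes higher in tumor 1 and 5 higher in tumor 3, where 3.57% and 4.20% of all genes were. Higher in tumor 1 were Ltf, the iron-binding lactoferrin of milk, at 442, 61.1 and 122, Lrg1 at 65.2, 12.5 and 6.97, the mucins Muc4 and Muc15 at 8.28, 0.309 and 0.719 and 0.927, 0.119 and 0.211, and Fcgbp at 5.37, 0.248 and 0.636. Higher in tumor 3 were Saa3 at 1.63, 81.7 and 33.2, Hp, the hemoglobin carrier haptoglobin, at 10.72, 89.8 and 56.3, Orm1 at 0.167, 2.91 and 1.43, and the complement genes Cfb and C4b at 2.12, 5.52 and 21.6 and 3.25, 23.3 and 7.43. For Saa3, Hp, Orm1 and C4b the highest level was that of tumor 2, and for Saa3 and C4b it lay above both others by the rule. Saa1 and Saa2 were at 127, 270.3 and 198 and 113, 234 and 151, but their sequences are nearly the same, so a probe may read either, and this holds for Orm1 and its relatives as well.

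Growth factors were detected for 19 of 22 genes with a median level of 1.66. Of the EGF receptor ligands, Areg and Hbegf were at 4.45, 5.14 and 5.13 and 5.47, 5.04 and 7.40, Epgn at 1.15, 2.51 and 2.42, and Egf itself, which the medium supplied, was dim at 0.0769, 0.0612 and 0.0621. Tgfb3 was at 56.1, 77.0 and 36.3 and Tgfb2 at 10.4, 5.70 and 8.62, both ligands of Tgfbr2. Inhba, the subunit of activin, was at 6.97, 11.8 and 46.5 and Pdgfb, a growth factor for pericytes, at 8.28, 7.06 and 25.0. Inhba, Pdgfb and Epgn were the 3 genes higher in tumor 3, with −2.74 and −2.56 log2 units for Inhba, and Fgf1 was the 1 higher in tumor 1. Igf2 and Hgf were on no array above background, and Igf1, for which there are 4 probes, on at most 2. IGF-binding proteins were detected for 6 of 7 and varied widely, with a median SD of 1.29 log2 units. Igfbp5, which rises as the gland regresses after lactation, was at 265, 122 and 51.0, highest in tumor 1, and Igfbp3 at 6.70, 0.238 and 1.16, lowest in tumor 2 in both channels. Igfbp2 was at 2.22, 4.80 and 0.558, where tumor 2 lay above both others in both channels, while Igfbp6 and Igfbp7 were dim and higher in tumor 3 than in tumor 1.

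Chemokines were detected for 19 of 26 genes, close to the 65.7% of all named genes, with a median level of 1.76. Cxcl1 and Cxcl5, which draw neutrophils through the receptor Cxcr2, were at 7.89, 23.2 and 15.0 and 7.94, 46.1 and 24.4, both lowest in tumor 1 and highest in tumor 2. Cx3cl1, the membrane-bound fractalkine, was at 12.7, 21.7 and 11.9. Ccl2, which draws monocytes, was at 3.08, 2.27 and 9.80, Ccl9 at 4.71, 3.90 and 17.4, and Ccl5, which draws T cells, at 0.567, 4.004 and 2.41. By the rule 10 of the 19 detected chemokines were higher in tumor 3 than in tumor 1 and none higher in tumor 1, where 4.20% and 3.57% of all genes were, and the median difference was −1.22 log2 units, and −1.43 in the RL channel. The 10 were Cxcl2, Cxcl5, Cxcl12, Cxcl14, Cxcl16, Ccl2, Ccl5, Ccl7, Ccl9 and Ccl11. The widest was that of Ccl11, a chemokine for eosinophils, at 0.161, 0.0664 and 1.54 with −3.26 and −3.54 log2 units. Fibroblast genes stood the same way, with 7 of 12 higher in tumor 3 and sums of 29.3, 18.9 and 59.5 led by Col1a1, and their part in the chemokine difference was not tested. Cxcl10, which interferon induces, passed on 2 arrays with levels of 0.531 and 0.473 in tumors 2 and 3 and 0.0289 in tumor 1, and Cxcl13, Cxcl15, Ccl20 and Ccl22 were on no array above background.

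Cytokines were detected for 20 of 29 genes, close to the 65.7% of all named genes, with a median level of 0.356. The growth factors of myeloid cells Csf1 and Csf3 were at 4.81, 3.26 and 6.53 and 3.996, 6.32 and 8.61, and Csf2 was above background on 1 array. Il11 was at 3.59, 4.598 and 16.0 and Il6 at 0.623, 7.29 and 3.58, ligands that signal through gp130 to Stat3. Both were higher in tumor 3 than in tumor 1, with −2.15 and −2.25 log2 units for Il11 and −2.52 and −2.88 for Il6, and Il6 was highest in tumor 2. The inflammatory cytokines Il1a and Tnf were the others higher in tumor 3, at 0.113, 0.0547 and 0.541 and 0.258, 0.378 and 1.28, and Il1b was near background at 0.0807, 0.0146 and 0.142. The T cell cytokines Il4, Il5, Il10, Il13, Il17a and Ifng, and the interferon gene Ifnb1, were on no array above background.

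Genes of antigen presentation by MHC class I were detected for 11 of 11 with a median level of 15.0. The light chain B2m was at 102, 101.4 and 193, and the heavy chains H2-K1 and H2-D1 at 198, 153 and 296 and 132, 94.6 and 209.8, although the heavy chains are alike enough for a probe to read more than its own. The peptide transporter gene Tap2 was at 19.0, 17.1 and 22.3, and the immunoproteasome subunits Psmb8 and Psmb10 at 15.2, 9.14 and 22.04 and 25.6, 29.3 and 52.1. Tumor 3 was the highest for each of these 6 genes, and none of them met the rule between tumors 1 and 3. Nlrc5, the activator of class I genes, was the 1 gene that did, at 0.144, 0.559 and 0.952 with −2.72 and −2.76 log2 units. Class II genes were detected for 6 of 8, with a median level of 0.231. Cd74, the invariant chain, was at 0.110, 0.0840 and 0.174 and H2-Ab1 at 0.276, 0.137 and 0.944, while H2-Aa and the activator Ciita were on no array above background. The protease gene Ctss, brightest of the list on average at 4.46, 1.73 and 3.78, is not limited to class II cells. H2-Ab1 was higher in tumor 3 and H2-DMb1, at 5.60, 1.29 and 1.70, in tumor 1, though its neighbor H2-DMb2 is alike enough to be read with it.

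Ligands that restrain or costimulate lymphocytes were detected for 14 of 17, with a median level of 0.807. Cd274, the gene of PD-L1, was dim at 0.113, 0.0234 and 0.194, and Pdcd1lg2, the gene of PD-L2, was on no array above background. Cd47, which protects cells from being engulfed, was at 14.6, 16.9 and 27.3, and Cd24a at 71.0, 55.8 and 76.1. The ligands Lgals9 and Nectin2 were at 6.48, 2.27 and 8.89 and 5.95, 4.43 and 9.19, both lowest in tumor 2. Nt5e, the enzyme CD73 that makes adenosine, was at 2.88, 5.84 and 13.1 and was the 1 gene of the list higher in tumor 3, with tumor 1 minus tumor 3 at −2.19 and −1.95 log2 units. Icam1 was at 0.0598, 0.238 and 0.289, with −2.27 log2 units in the untreated channel and −0.84 in the RL channel, so the rule was not met. Ido1, the tryptophan-degrading enzyme, was on no array above background.

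Genes that interferon induces were detected for 15 of 15, with a median level of 6.98 and medians by tumor of 5.57, 3.24 and 13.6. Isg15, a ubiquitin-like protein, was at 57.3, 18.5 and 157, and Bst2, the tetherin that holds viruses at the cell surface, at 24.9, 13.7 and 85.5. Ifit1, which binds viral RNA, and its partner Ifit3 were at 1.35, 0.891 and 6.24 and 0.808, 0.574 and 2.71, and the RNA sensing enzymes Oas1a and Oasl2 at 44.5, 17.8 and 71.5 and 8.13, 3.24 and 32.8. Tumor 3 was the highest for each of these 6. By the rule 9 of the 15 were higher in tumor 3 and none higher in tumor 1, where 4.20% and 3.57% of all genes were, and the median difference was −1.43 log2 units, and −1.42 in the RL channel. The 9 were Stat2, Irf7, Isg15, Ifit1, Ifit3, Oasl2, Rsad2, Gbp2 and Bst2. Tumor 2 lay below both others for Isg15, Irf7, Oas1a and Oasl2, at −1.63 log2 units in the untreated and −1.55 in the RL channel for Isg15. The transcription factor Irf3, which is there before interferon acts, was even at 27.3, 26.03 and 24.0. The Ifit3 probe may read its close relatives. Leukocyte genes did not stand apart in tumor 3, with 6 of 8 detected, sums of 2.15, 1.04 and 2.16 led by Vav1 and Ptprc short of the call. Fibroblast genes did, with 12 of 12 detected and sums of 29.3, 18.9 and 59.5 led by Col1a1, and their part in the interferon difference was not tested.

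The promoters of these genes were read from RefSeq (GRCm38.p6) as windows from 250 bases before to 50 bases after each gene's start. Interferon acts through a DNA element in which GAAA stands repeated with a gap, searched here on both strands as GAAA, any 2 letters and GAAA again, where overlapping matches count separately. Of the 15 genes, 14 had a window, and 8 of these held the motif, among them 7 of the 9 genes higher in tumor 3, while Irf7 and Oasl2 did not hold it. Over all 27025 genes whose windows were searched, 3.99% held it. A match is a description of the letters and no sign that a factor binds. The windows of 4 genes higher in tumor 3 are printed 5′ to 3′ with matched letters in capitals. That of Isg15 is chr4:156200769-156201068 on the minus strand, that of Bst2 chr8:71537423-71537722 on the minus strand, that of Ifit1 chr19:34640639-34640938 on the plus strand and that of Ifit3 chr19:34583279-34583578 on the plus strand. They hold 3, 2, 2 and 2 matches.
Isg15: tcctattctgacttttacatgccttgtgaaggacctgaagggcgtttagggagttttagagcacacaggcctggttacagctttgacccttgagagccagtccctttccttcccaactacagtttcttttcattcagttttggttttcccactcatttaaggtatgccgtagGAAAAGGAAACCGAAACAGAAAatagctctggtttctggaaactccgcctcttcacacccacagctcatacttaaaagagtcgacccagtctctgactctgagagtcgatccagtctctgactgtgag
Bst2: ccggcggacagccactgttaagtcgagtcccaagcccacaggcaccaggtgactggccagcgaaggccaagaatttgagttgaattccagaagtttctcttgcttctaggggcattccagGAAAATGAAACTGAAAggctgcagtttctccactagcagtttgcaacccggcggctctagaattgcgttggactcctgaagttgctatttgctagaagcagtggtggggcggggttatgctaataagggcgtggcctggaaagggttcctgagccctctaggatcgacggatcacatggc
Ifit1: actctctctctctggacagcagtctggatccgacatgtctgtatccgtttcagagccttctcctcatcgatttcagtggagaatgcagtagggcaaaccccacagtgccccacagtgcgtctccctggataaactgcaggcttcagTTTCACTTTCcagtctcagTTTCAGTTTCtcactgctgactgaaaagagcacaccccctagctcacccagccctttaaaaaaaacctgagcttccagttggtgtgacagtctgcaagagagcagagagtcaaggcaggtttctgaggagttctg
Ifit3: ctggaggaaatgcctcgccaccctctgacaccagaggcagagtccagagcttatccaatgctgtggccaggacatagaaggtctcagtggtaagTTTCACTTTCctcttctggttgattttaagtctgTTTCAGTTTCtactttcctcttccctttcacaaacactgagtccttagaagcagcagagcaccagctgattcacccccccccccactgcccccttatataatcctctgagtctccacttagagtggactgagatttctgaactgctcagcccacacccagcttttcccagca

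Cell cycle transcripts were detected throughout, as 20 of 20 proliferation genes were well above background, with a median level of 17.2, and none differed between tumors by the rules. Mki67, the gene of the Ki-67 antigen, was at 32.6, 58.6 and 42.5, the replication clamp Pcna at 54.2, 67.0 and 55.2, and Ccnd1, cyclin D1, at 85.6, 85.1 and 71.8. The mitotic genes Birc5 and Plk1 were at 94.0, 98.4 and 102 and 25.7, 38.7 and 45.2. Tumor 1 had the lowest level of Mki67, Pcna, Birc5 and Plk1. Reference genes were even between tumors 1 and 3, with a median difference of 0.03 log2 units. Hprt was at 38.9, 39.4 and 45.1 and Tbp at 2.74, 2.86 and 2.65, and the bright Actb, at 735, 374 and 724, was lower in tumor 2 in Cy3 and highest in tumor 2 with the dyes exchanged, at 367, 725 and 378.

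The 20 genes with the brightest probes included the ribosomal protein genes Rplp0, Rps14, Rpl41, Rpl35, Rpl14, Rpl37a and Rplp2, the actins Actb and Actg1, whose sequences are close, and Tpt1 and Ppia. Rplp0 was at 731, 398 and 664 and Tpt1 at 678, 396 and 589.8, both lowest in the Cy3 channel of tumor 2. Lcn2 and Krt18 were the genes of the secretory and luminal lists among them. The rest were Elk1, Slc10a1, Kctd14, Glrx2, Ttc38 and Exosc2. Exosc2 has no other named probe to check it, and for each of the others another probe read far less, as it did for Rpl14. Elk1 was at 669.7, 384 and 645 from 1 probe and at 0.148, 0.135 and 0.186 from the other, and the other probe of Slc10a1, a bile acid transporter of liver, was not well above background on all arrays. Their brightness is therefore that of a probe and is not taken as the level of the gene. Among 3688 genes with several member probes, the probes of a gene differed by a median of 2.27 log2 units in mean level, and by over 1 for 2695 genes.

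Over all genes, the 10 largest differences between tumors 1 and 3 that met the rule were read in each direction. Of those toward tumor 1, Lalba and Csn1s1 were described with the milk genes. Kcne3, a subunit of potassium channels, was at 47.2, 2.88 and 1.40, and Tspan8, a tetraspanin of epithelium, at 18.7, 0.467 and 0.838, both far brighter in tumor 1, with tumor 1 minus tumor 3 at 5.08 and 4.52 log2 units and 4.48 and 3.85. Atp2a3, a calcium pump, was at 0.844, 0.0293 and 0.0446. Cyp24a1, the enzyme that breaks down active vitamin D, was at 0.926, 0.387 and 0.0359. Tmem213 was at 3.36, 2.43 and 0.0872, 2310057J18Rik at 2.15, 0.0332 and 0.0572 and Gstm6 at 0.351, 0.0684 and 0.0174, and the relatives of Gstm6 are too alike to be told apart by a probe with certainty. In each of these tumor 3 was near background, except for Lalba, Csn1s1, Kcne3 and Tspan8, so the sizes of the others depend on the background taken off. With the negative control mean subtracted, the difference of Cyp24a1 was 4.26 log2 units in place of 4.69.

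Toward tumor 3 the largest difference was that of Prl8a9, a placental member of the prolactin family, at 0.0680, 0.402 and 2.95 with −5.44 and −6.16 log2 units as tumor 1 minus tumor 3. Keratins of stressed and stratified epithelium were among the 10, Krt6a at 0.581, 5.75 and 16.6 and Krt6b at 0.177, 2.12 and 5.75, which are too close in sequence to be read apart with certainty. Krtdap, a protein of differentiating keratinocytes, was at 0.0557, 0.467 and 1.06. Tumor 2 lay between the others for these keratinocyte genes. Acod1, the enzyme of activated macrophages that makes itaconate, was at 0.695, 1.40 and 19.9, high in tumor 3 alone, with −4.84 and −4.34 log2 units. No gene of the macrophage list met the rule between tumors 1 and 3, with 12 of 13 genes detected and Cx3cr1 not above background. The sums of that list, 22.4, 19.6 and 24.5, rest on the doubtful Itgam probe, and its medians were 0.620, 0.301 and 0.372. Gene by gene, the median of tumor 1 minus tumor 3 was 0.19 log2 units in the untreated and 0.03 in the RL channel. The part of macrophages in the difference of Acod1 was not tested. The protease inhibitors Serpina3f and Serpina3i, near copies of each other, were at 0.532, 5.23 and 14.4 and 0.0577, 0.598 and 1.74, and Saa3 was lowest in tumor 1. Adgrf4 and Gm5476 completed the 10, at 0.0443, 0.133 and 1.36 and 0.164, 1.64 and 4.77.

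**Figure D4:**
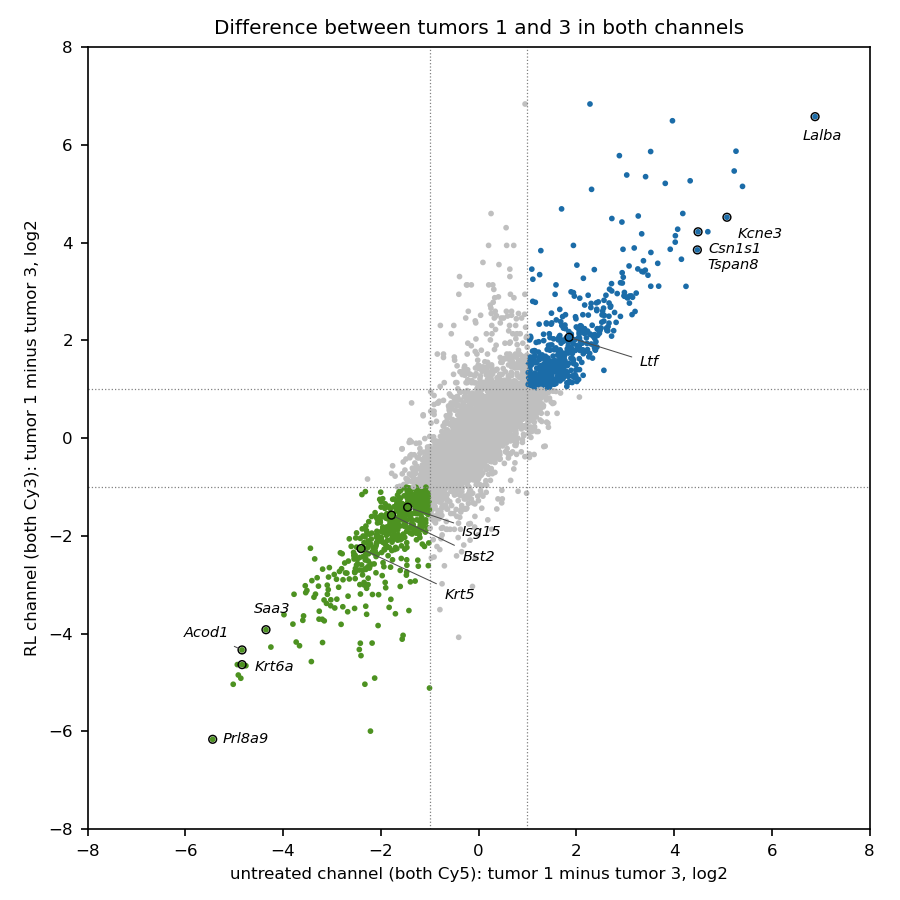
Difference of tumor 1 minus tumor 3 in log2 units, in the untreated channel (x axis) and in the RL channel (y axis), with 1 point per gene. Blue points are the 492 genes higher in tumor 1 and green points the 579 higher in tumor 3 by at least 1 log2 unit in both channels, with Lalba at 6.88 and 6.58 and Prl8a9 at −5.44 and −6.16.

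The 10 genes by which tumor 2 stood furthest above both other tumors include several that encode secreted proteins. Pip, a secreted protein of apocrine and milk fluids, was at 0.122, 17.6 and 0.502, above the next tumor by 5.13 log2 units in the untreated and 4.93 in the RL channel. Wif1, a secreted inhibitor of Wnt ligands, was at 0.0804, 3.01 and 0.188, and Camp, an antimicrobial peptide of the neutrophil list, at 0.158, 2.50 and 0.184. Scrg1 was at 0.113, 4.94 and 0.143 and Ccnd2, cyclin D2, at 0.344, 5.46 and 0.627, both low in tumors 1 and 3. Il19, a cytokine of the Il10 family, was at 0.0464, 1.96 and 0.235 and Eln, which encodes elastin, at 0.0237, 0.787 and 0.0950. Gypc, Ecrg4 and Bpifb5 were the others of the 10, at 0.342, 5.05 and 0.470, 1.52, 14.7 and 0.544 and 0.0845, 1.27 and 0.107. These genes stood high in tumor 2 in Cy3 and again in Cy5.

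Among the 10 genes with the largest differences of tumor 2 below both others, tumor 2 was mostly near its local background. Their order and sizes therefore depend on the background taken off. The order is not read, and each size printed is given with that of the RL channel. Chil3, a chitinase-like protein of activated macrophages, was bright in tumors 1 and 3, at 29.2, 0.00391 and 8.74. The difference of tumor 2 was −11.13 log2 units in the untreated channel, −8.78 in the RL channel and −7.75 with the negative control mean subtracted. Mmp9, a gelatinase, was at 0.397, 0.00996 and 0.685, and Oas3, an interferon-induced RNA sensor, at 0.493, 0.0156 and 1.07. For Mmp9 the difference was −5.32 in the untreated and −2.99 in the RL channel, and −3.14 with the negative controls subtracted, and for Oas3 −4.98, −4.10 and −3.28. Ica1l was at 16.9, 0.207 and 5.26 and Gm5860 at 6.67, 0.0898 and 2.16, both clear in tumors 1 and 3. Their differences held their size in the RL channel, −4.67 and −5.05 log2 units for Ica1l and −4.59 and −4.62 for Gm5860. Itprid1 was at 1.20, 0.0430 and 1.58 with −4.81 and −5.51. Lrrc15, a protein of activated fibroblasts, was at 0.320, 0.0117 and 0.876, and its difference fell from −4.77 to −1.96 in the RL channel. Dleu7, Pcp4 and Klk12 completed the 10 and were dim in all tumors, and for Klk12 the difference fell from −4.42 to −1.12. The macrophage list was lower in tumor 2 for Tyrobp and Fcer1g by the rule, with 12 of 13 genes detected, sums of 22.4, 19.6 and 24.5 that rest on the doubtful Itgam probe and medians of 0.620, 0.301 and 0.372, lowest in tumor 2, and its part in the lower Chil3 and Mmp9 was not tested.

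At both ends of brightness, tumor 2 departed from the others in opposite directions in the untreated and RL channels. For the 1537 genes with a mean level under 0.125, the median of tumor 2 minus the mean of tumors 1 and 3 was −0.60 log2 units in the untreated channel and 0.43 in the RL channel. Among the 3687 genes with levels from 2 to 8 it was 0.05 and 0.00. For the 271 genes at 128 or more, Krt18, Lcn2 and Actb among them, it was −0.48 and 0.61. The channels exchange the dyes and differ in treatment, so a low level of tumor 2 in a very bright or very dim gene is not read as a difference of the tumor unless the RL channel shows it too. Pearson's r of the log2 levels was 0.972 between tumors 1 and 3, across 13903 genes. Across the 13832 genes with a positive level in tumor 2 as well, it was 0.960 between 1 and 2 and 0.969 between 2 and 3. The genes are not independent replicates and share 1 slide.

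**Figure D5:**
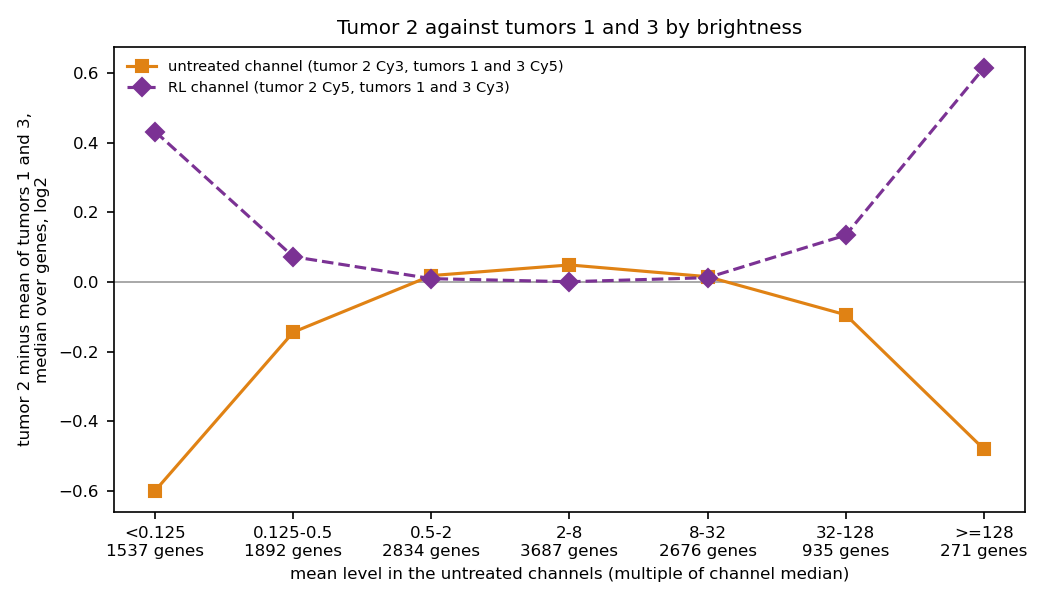
Median over genes of tumor 2 minus the mean of tumors 1 and 3, in log2 units, by mean level in the untreated channels (multiples of the channel median, with the number of genes in each bin). The untreated channel has tumor 2 in Cy3 and the RL channel has it in Cy5; at 128 or more the medians are −0.48 and 0.61.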

How the data were processed

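The spot intensities were used as the authors deposited them: per the file headers, Agilent Feature Extraction 10.7.3.1 took the median pixel brightness of each spot and of its local background in each dye, without correction. Here the local background was subtracted and each control channel was divided by its median over the member probes. The processed intensities entered 1 alternative of the sensitivity section alone, and the authors' table of ratios was not used here. The RL channel served the rule for differences between tumors, an alternative for detection and a count of genes detected there alone. It also gave the levels and medians printed beside untreated ones, among them those of tumor 2 by brightness. A probe was named where its accession belonged to a transcript of exactly 1 gene in RefSeq GRCm38.p6, which was the case for 28026 of 55681 probes and gave 21154 symbols. Spots the software marked as outliers were left out, spots with the same probe were averaged, a probe passed where most of its spots did, and 28832 probes were well above background in the control channel of the arrays. Members and gene lists were chosen with earlier results of these data known. Python 3.11.15 with numpy 2.4.6, pandas 2.3.3 and matplotlib 3.10.9 was used, and limma 3.58.1 under R 4.3.3 for the normexp alternative alone. A few genes counted in the lists are not reported here by name or drawn.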

Additional observations from a re-analysis of the deposited data

Results flagged for a closer look

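One comparison outside the untreated channel gave an unlooked-for result: 2 named genes, Olfr559 and Prl3a1, were well above background in all 3 RL channels and in no untreated channel, while 4 genes were so the other way round.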

How the results depend on the processing

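The counts of tumor differences depended on how background was handled. With the normexp correction of limma, 268 genes were higher in tumor 1 and 340 in tumor 3, in place of 492 and 579, and without background correction 319 and 374. Tumor 2 lay above both others for 84 genes and below for 124 with normexp, and for 92 and 155 without correction, in place of 146 and 280. Read from the untreated channel alone, 723 genes lay below in tumor 2. After subtraction of the negative control mean, an alternative chosen after seeing the data, the counts were 442 and 542 for tumors 1 and 3 and 136 and 253 for tumor 2. The number of detected genes stayed between 13815, counted in the RL channel, and 15847, and the median of the luminal list stayed 2.64 to 2.91 log2 units above that of all detected genes. That gap lies between different probes, and the probes of 1 gene differed by a median of 2.27 log2 units, so it is not read as more RNA. Of the 6 markers, the level of Esr1 moved most, from −4.33 to −2.03 on the log2 scale. The level changes between a tumor's untreated and RL cultures were not analysed here.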
